A study of Mus musculus with 20 samples.

Results

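The 38 genes described here are activity-regulated genes. They were listed by symbol, with no measured value in the rule, but the list was drawn up with earlier results of these data known. They cover immediate-early transcription factors, the MAP kinase phosphatases and other brakes that follow them, and later synaptic and secreted effectors. They were read by symbol from a table of estimated RNA-seq counts for cultured mouse cerebellar granule neurons. All 38 were among the 24411 genes of the table, and all 38 passed the filter on low counts with 15284 genes in all.

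When a neuron depolarises, calcium entry and kinase signalling switch on a first wave of genes within minutes, without new protein synthesis, through factors already bound at their promoters such as CREB, SRF and MEF2. That wave encodes mostly transcription factors (the FOS, JUN, EGR, NR4A and NPAS4 proteins), which act on a second wave whose products adjust synapses, secrete peptides and shut the signalling off. Granule neurons are the small excitatory neurons of the cerebellar granule layer, and their survival and maturation in culture are known to depend on depolarisation and calcium signalling.

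Kdm6b encodes a demethylase that takes silencing methyl groups off lysine 27 of histone H3, and the study asked whether its enzymatic domain can restore gene expression after knockdown. There were 4 groups: control, knockdown of mouse Kdm6b with an shRNA (shKdm6b), that shRNA plus the human KDM6B enzymatic domain in active form (the active rescue, labelled Cat) and that shRNA with a dead form of the domain (the dead rescue, labelled dCat). Both rescue groups therefore carried the same shRNA as the knockdown group, with an enzymatic domain and not the full-length protein. Infection was on day 1 in vitro, AraC, which kills dividing cells, was added on day 2, and RNA was taken on day 7. The sources used here do not give what the control was infected with, the mouse strain, its age or any depolarising treatment, so the levels below are those of cultures with no stated stimulus. Every group had 5 libraries with the numbers 1 to 5. Nothing in the labels says whether these are separate cultures or animals, so a p-value here reflects the spread among the samples, which may be technical. In bulk RNA, fewer cells of a type and less RNA per cell cannot be told apart.

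Total estimated counts ran from 14200745 to 21179300 per library. Kdm6b itself was at 141, 171, 139, 81.2 and 187 CPM (counts scaled to the library total) in control libraries 1 to 5 and at 99.4, 112, 89.3, 37.9 and 76.4 CPM with shKdm6b, lower in 5 of 5 same-numbered pairs. The paired fit described below gave a log2 fold change of -0.88 ± 0.21 (SE, edgeR adjusted p = 0.0231). Without the pairing it was -0.79 ± 0.43 (adjusted p = 1), and an exact two-sided permutation test gave p = 0.0317 (0.190 adjusted over the 6 group pairs). The active rescue was at 290.4, 312, 266, 73.2 and 119 CPM and the dead rescue at 272, 250.1, 192, 54.9 and 109 CPM. In both rescues libraries 1 to 3 were above their same-numbered controls and libraries 4 and 5 below them, while all 5 were above shKdm6b. Whether reads from the human domain count toward mouse Kdm6b in these values was not tested. Granule neuron markers were present in every library (summed level of 14 genes 2067 to 7665 CPM) and lowest in the 4 libraries numbered 4 (2067 to 3359 CPM). Fibroblast and meningeal markers (10 genes) were also present, at 24896 to 32611 CPM in the libraries numbered 5, 14769 to 18133 CPM in those numbered 3 and 5089 to 9289.7 CPM in the others. The Purkinje cell marker Pcp2 was at 0 in every library. Rn45s, a ribosomal RNA precursor, was at 24208 to 76079 CPM in libraries 1 to 3 of each group and at 2127 to 5816 CPM in libraries 4 and 5. Malat1 was split in the same way, at 4422 to 6888 CPM and at 217 to 997 CPM.

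Per kilobase of exon, the control levels of the 38 genes spanned a wide range. Jund, a JUN family member that most cells express constitutively, was the highest at 200.6 CPM per kb. Nptx1, a secreted pentraxin that gathers AMPA receptors at synapses, followed at 108.8 CPM per kb, then Jun at 48.95, Junb at 38.6 and Gadd45b at 35.3 CPM per kb. Between these and the lowest members lay Egr1 at 25.6 and Fos at 8.97 CPM per kb. The lowest 5 members were Arc at 0.928, Npas4 at 0.882, Nptx2 at 0.818, Nr4a3 at 0.767 and Fosb at 0.161 CPM per kb.

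Most of the spread of these genes lay between replicate numbers and not between groups. In the median member, 77.4% of the sum of squares of log2 CPM lay between numbers and 8.92% between groups, against 71.7% and 4.26% in the median of all genes tested. Jun was the one with most between groups (46.0%, with 29.8% between numbers), followed by Npas4 (36.2%) and Nr4a1 (28.5%), whereas Klf4 had 95.7% and Fosl2 92.7% between numbers. The libraries numbered 5 were the highest for 16 members and those numbered 4 the lowest for 15.

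The members did not follow 1 common pattern over the numbers. As log2 deviations from the mean over numbers, the libraries numbered 4 had -1.85 for Nptx1, -1.79 for Dusp5, -1.57 for Egr3, -1.42 for Nr4a2, -1.35 for Bdnf and -1.12 for Homer1. These were the libraries in which granule neuron markers were lowest (deviation of their summed level -1.003). Astrocyte and Bergmann glia markers were highest in them (deviation 1.06, 12939 to 16716 CPM). Among the members, Gadd45g (1.05), Nr4a3 (0.87) and Jund (0.53) were instead highest there. Klf4 and Fosl2 were high in the libraries numbered 3 (deviations 0.48 and 0.24) and 5 (1.03 and 0.90), those with the most fibroblast marker RNA (0.32 and 1.14). That pattern was not particular to them. Npas4 (0.36 in number 3 and 0.75 in number 5), Nptx2 (0.54 and 0.52), Sik1 (0.59 and 0.40), Dusp1 (0.31 and 0.45) and Maff (0.45 and 0.29) shared it. Atf3 (-0.70 and -0.78) and Rgs2 (-0.31 and -0.85) were low in both. The part of cell composition in these patterns was not tested, nor was that of the split seen in Rn45s and Malat1.

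**Figure D1:**
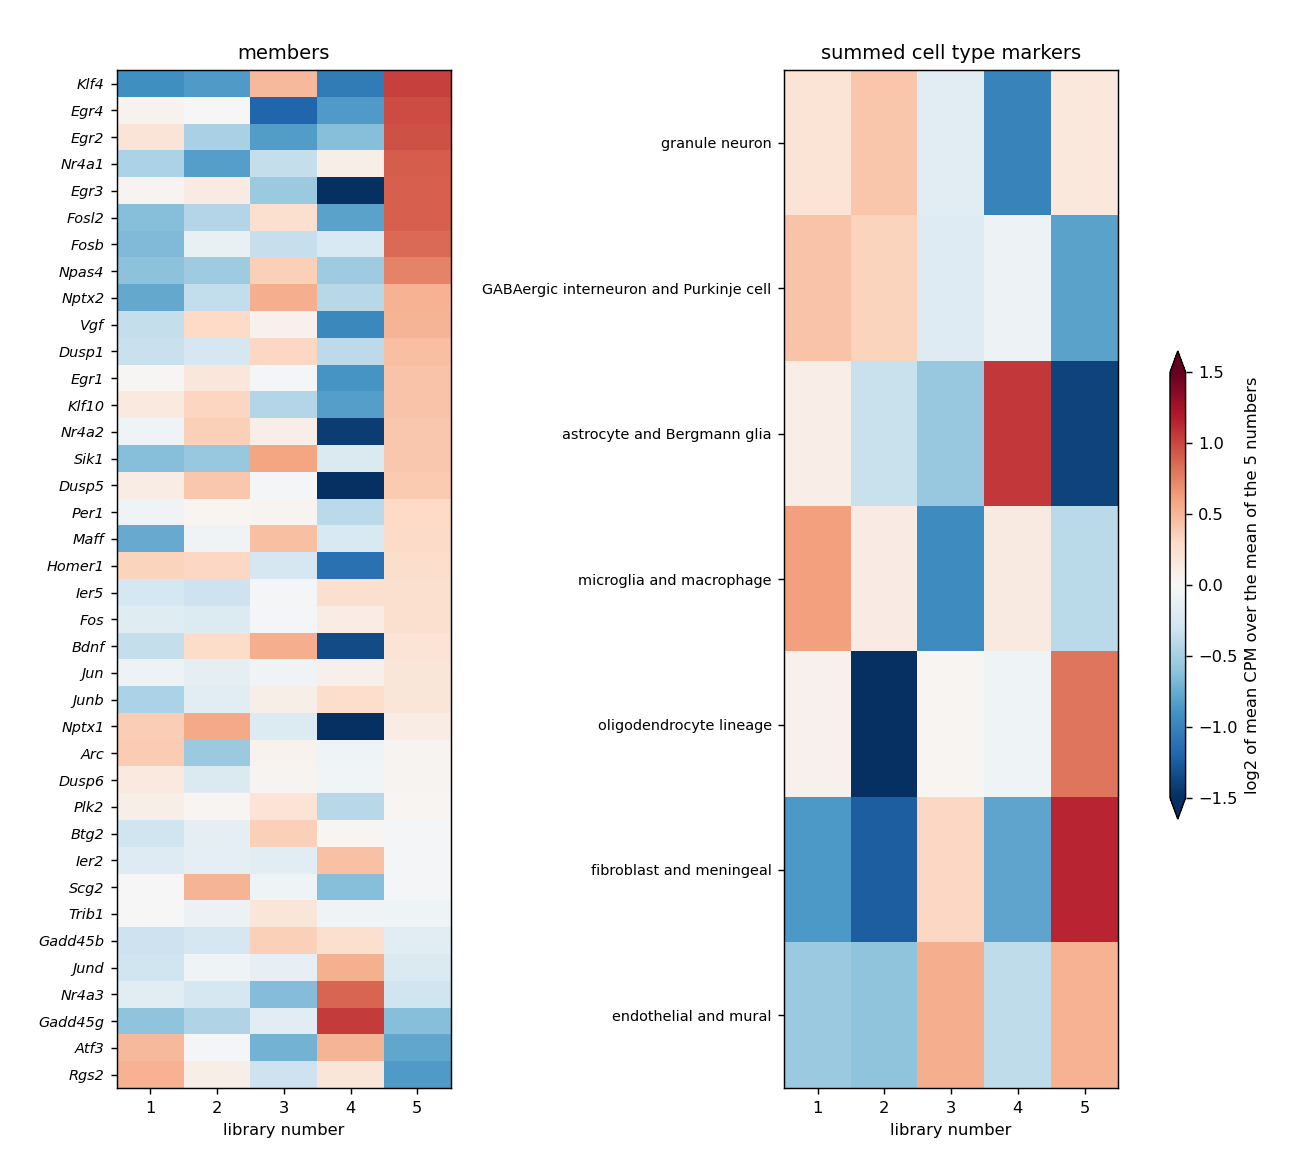
Log2 of each gene's mean CPM in the libraries of 1 replicate number over its mean of the 5 numbers, with the summed cell type markers in a panel beside it. Colours saturate at 1.5 log2 units in either direction. The column of number 4 holds the lowest value for 15 of 38 genes, among them Nptx1 and Dusp5, and the column of number 5 the highest for 16.

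Since same-numbered libraries deviated together, each comparison below is given from a fit without the number and from a paired fit with it as a replicate block. The first comparison was shKdm6b against control. Without the block, edgeR's quasi-likelihood test called none of the 38 members at an adjusted p of 0.05 (0.00654% of all genes were called, 2 members had an unadjusted p under 0.05, and DESeq2 called 0). In the paired fit 6 of 38 members passed, all lower with shKdm6b: Nptx1, Nr4a1, Egr1, Klf4, Per1 and Klf10. That is 15.8% of the members, where 4.14% of all genes tested passed, 2.41% lower and 1.72% higher. Over all 38 members the median log2 fold change was -0.12, with 21 negative and 17 positive, against a median of 0.01 over all genes. Lower values in 5 of 5 same-numbered pairs were seen for 11 members (28.9%, against 11.9% of all genes) and higher values in 5 of 5 for 4 (10.5%, against 12.9%). For none of the members did the shKdm6b and control libraries separate without overlap (background 0.327% lower and 0.53% higher). Beside these counts, microglia and macrophage markers had a median of -0.39 in the same fit, with 1 of 16 lower and 0 higher. Their summed level was 3333 CPM in control 4 and 1208 CPM in shKdm6b 4. It was 700 CPM in active rescue 4 and 852 CPM in dead rescue 4. The block does not remove such a difference within a number. In the libraries numbered 2 and 3 shKdm6b was instead above control. Astrocyte and Bergmann glia markers had a median of 0.11, with 0 of 11 called. The part of either marker set in the members' values was not tested.

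The NR4A group encodes orphan nuclear receptors that act without a ligand and are induced through CREB and MEF2. Nr4a1 was at 8.86, 7.59, 8.79, 11.7 and 22.5 CPM in control libraries 1 to 5 and at 5.36, 2.87, 4.37, 7.68 and 11.4 CPM in shKdm6b 1 to 5. Every shKdm6b library was below its same-numbered control, number 5 was the highest of each group, and the groups overlapped. In the paired fit Nr4a1 fell to 52.5% of control (log2 fold change -0.93 ± 0.19 (SE), edgeR adjusted p = 0.00775), and the call held in all 10 fits that left out 1 library of either group. Nr4a2 had -0.61 ± 0.19 (adjusted p = 0.0890, lower in 5 of 5 pairs) and Nr4a3 -0.18 ± 0.26, so 1 of 3 NR4A genes passed.

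Of the 4 EGR genes, zinc finger factors of the first wave, 1 passed and all 4 had negative values, with a median of -0.47. Egr1 was at 116, 138, 118, 62.2 and 140.2 CPM in control and at 89.4, 102, 87.6, 45.5 and 129.7 CPM with shKdm6b. Number 4 was the lowest library of both groups, and the ranges overlapped while every pair moved down. Egr1 fell to 77.8% of control (log2 fold change -0.36 ± 0.08, adjusted p = 0.0154, paired fit), a call lost without control 2 or control 3 (largest adjusted p 0.0593). Egr3 (-0.58 ± 0.18, adjusted p = 0.0910) and Egr4 (-1.06 ± 0.40, adjusted p = 0.192) did not pass although both were lower in 5 of 5 pairs. Egr2, known also for its part in myelinating glia, had -0.18 ± 0.19.

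Npas4 is a neuron-specific factor induced by calcium, and Klf4 and Klf10 are Krüppel-like zinc finger factors. Npas4 had the most negative value of all 38 genes, -1.34 ± 0.44, but did not pass (adjusted p = 0.116). Its control libraries were at 1.68, 2.65, 6.31, 2.19 and 5.43 CPM and its shKdm6b libraries at 1.20, 0.797, 0.982, 0.598 and 4.18 CPM. Library 5 of shKdm6b lay among the controls and the other 4 lay below all of them. Klf4 was at 17.4, 17.4, 51.6, 14.9 and 68.6 CPM in control and at 13.2, 14.6, 32.8, 12.6 and 52.8 CPM with shKdm6b. Its libraries numbered 3 and 5 stood high in both groups, each pair moved down, and Klf4 fell to 76.2% of control (-0.39 ± 0.09, adjusted p = 0.0233, paired fit). Klf10 (GRCm38 chr15:38291463-38300706, - strand) was at 90.1, 90.4, 64.1, 41.6 and 103 CPM in control and at 69.8, 79.0, 50.7, 34.7 and 82.1 CPM with shKdm6b. It too was lower in every pair with overlapping groups, and Klf10 fell to 81.2% of control (-0.30 ± 0.08, adjusted p = 0.0398). The Klf4 call was lost in 6 and the Klf10 call in 7 of 10 fits without 1 library. The fibroblast and meningeal markers, whose levels varied with Klf4 over the numbers, had a median of -0.28 in this comparison with 1 of 10 lower and 0 higher; their part in the Klf4 value was not tested.

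The synaptic effectors are Arc, which drives AMPA receptor endocytosis, the scaffold gene Homer1, and the pentraxins Nptx1 and Nptx2. Nptx1 (GRCm38 chr11:119538719-119547753, - strand) was at 695, 849.6, 477, 175 and 641 CPM in control and at 474, 553, 294, 56.6 and 399 CPM with shKdm6b. Number 4 was the lowest of each group by a wide margin, and the ranges overlapped. Nptx1 fell to 57.2% of control (log2 fold change -0.81 ± 0.15, adjusted p = 0.00543, paired fit), the smallest adjusted p of the 38 genes, and the call held in all 10 fits without 1 library. Without the 4 libraries numbered 4 its value was -0.66 ± 0.10 (adjusted p = 0.000560). Granule neuron markers had a median of 0.03 in the paired fit of all libraries. Of these 14 markers 2 were higher and 3 lower, where 1.72% of all genes were higher and 2.41% lower. Their part in the Nptx1 value was not tested. Nptx2 (-0.46 ± 0.28), Homer1 (-0.21 ± 0.22) and Arc (0.05 ± 0.29) did not pass.

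The AP-1 group holds the genes of the FOS and JUN proteins, which pair to form AP-1, with Atf3 and Maff; 0 of 8 passed, with a median of 0.20 and 1 of 8 negative. Jun was at 159, 135, 149, 156 and 181 CPM in control and at 208, 177, 186, 181 and 226 CPM with shKdm6b. Each shKdm6b library exceeded its same-numbered control, and the groups overlapped only through control 5. The paired fit gave Jun 0.33 ± 0.09 (adjusted p = 0.0565), short of the threshold. An exact two-sided permutation test of the 5 against 5 libraries, run for the 8 called members and Kdm6b, gave p = 0.0238 for Jun (0.0476 adjusted over the 6 group pairs). That adjustment does not cover the 8 members, which were chosen by calls in these same data. Jun is therefore not counted as passing here. Without pairing, the same test gave 0.0635 for Nr4a1, 0.0794 for Per1, 0.254 for Scg2, 0.310 for Nptx1, 0.341 for Egr1, 0.373 for Klf10 and 0.532 for Klf4. Flipping the signs of the 5 paired differences, also an exact test, gave 0.0625 for each of these 8 genes, the smallest p possible with 5 pairs. Jund, highest of the group, had 0.34 ± 0.18 (adjusted p = 0.414, higher in 5 of 5 pairs), and Fos 0.10 ± 0.13. Exons of Jun, Junb, Jund, Bdnf, Dusp1 and Dusp5 overlap genes on the opposite strand, and the sources used here do not say whether counting used strand, so reads of such pairs may not be separated.

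Among secreted products, Vgf and Scg2 encode precursors of neuropeptides stored in dense core vesicles, and Bdnf a neurotrophin; 0 of 3 passed. Scg2 was at 42.4, 55.7, 40.5, 25.2 and 43.6 CPM in control and at 50.1, 68.8, 45.3, 34.6 and 56.3 CPM with shKdm6b. It was higher in 5 of 5 pairs, at 0.31 ± 0.09 (adjusted p = 0.0656). Vgf went the other way at -0.66 ± 0.22 (adjusted p = 0.133, lower in 5 of 5 pairs), and Bdnf had -0.22 ± 0.18.

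None of the brakes on signalling passed with shKdm6b. Dusp1, Dusp5 and Dusp6 encode phosphatases that switch MAP kinases off, and 0 of 3 passed. Dusp5, the one with the highest mean, was at 68.6, 76.6, 64.6, 18.2 and 82.2 CPM in control and at 64.4, 69.4, 47.1, 8.14 and 84.3 CPM with shKdm6b. Number 4 stood far below the other libraries in both groups, and the fold change was -0.30 ± 0.17 (adjusted p = 0.445). Dusp6 had 0.20 ± 0.08 (adjusted p = 0.249, higher in 5 of 5 pairs). Of Rgs2, Sik1, Plk2 and Trib1, 0 of 4 passed, with values from -0.06 to 0.15. Plk2, a kinase of synaptic down-scaling, was at 86.05, 82.7, 95.7, 54.9 and 75.3 CPM in control and at 83.8, 76.4, 85.1, 53.1 and 79.4 CPM with shKdm6b, and the groups overlapped over most of their range (-0.06 ± 0.07).

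Of the 6 remaining early genes, 1 passed. Per1, a clock gene that light and depolarisation induce through CREB, was at 64.4, 65.0, 63.9, 50.9 and 82.8 CPM in control and at 54.4, 55.1, 50.7, 35.3 and 63.6 CPM with shKdm6b. Each pair moved down and the ranges overlapped. Per1 fell to 78.8% of control (-0.34 ± 0.08, adjusted p = 0.0237, paired fit), a call lost in 4 of 10 fits without 1 library. Gadd45b, linked to DNA repair and demethylation, was at 54.2, 50.8, 58.7, 61.7 and 55.1 CPM in control and at 29.8, 26.9, 44.3, 72.6 and 33.6 CPM with shKdm6b. Its library numbered 4 went up while the other 4 went down, and it did not pass (-0.51 ± 0.18, adjusted p = 0.162); without the libraries numbered 4 it did. Ier2, Ier5, Btg2 and Gadd45g had values from -0.23 to 0.23.

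**Figure D2:**
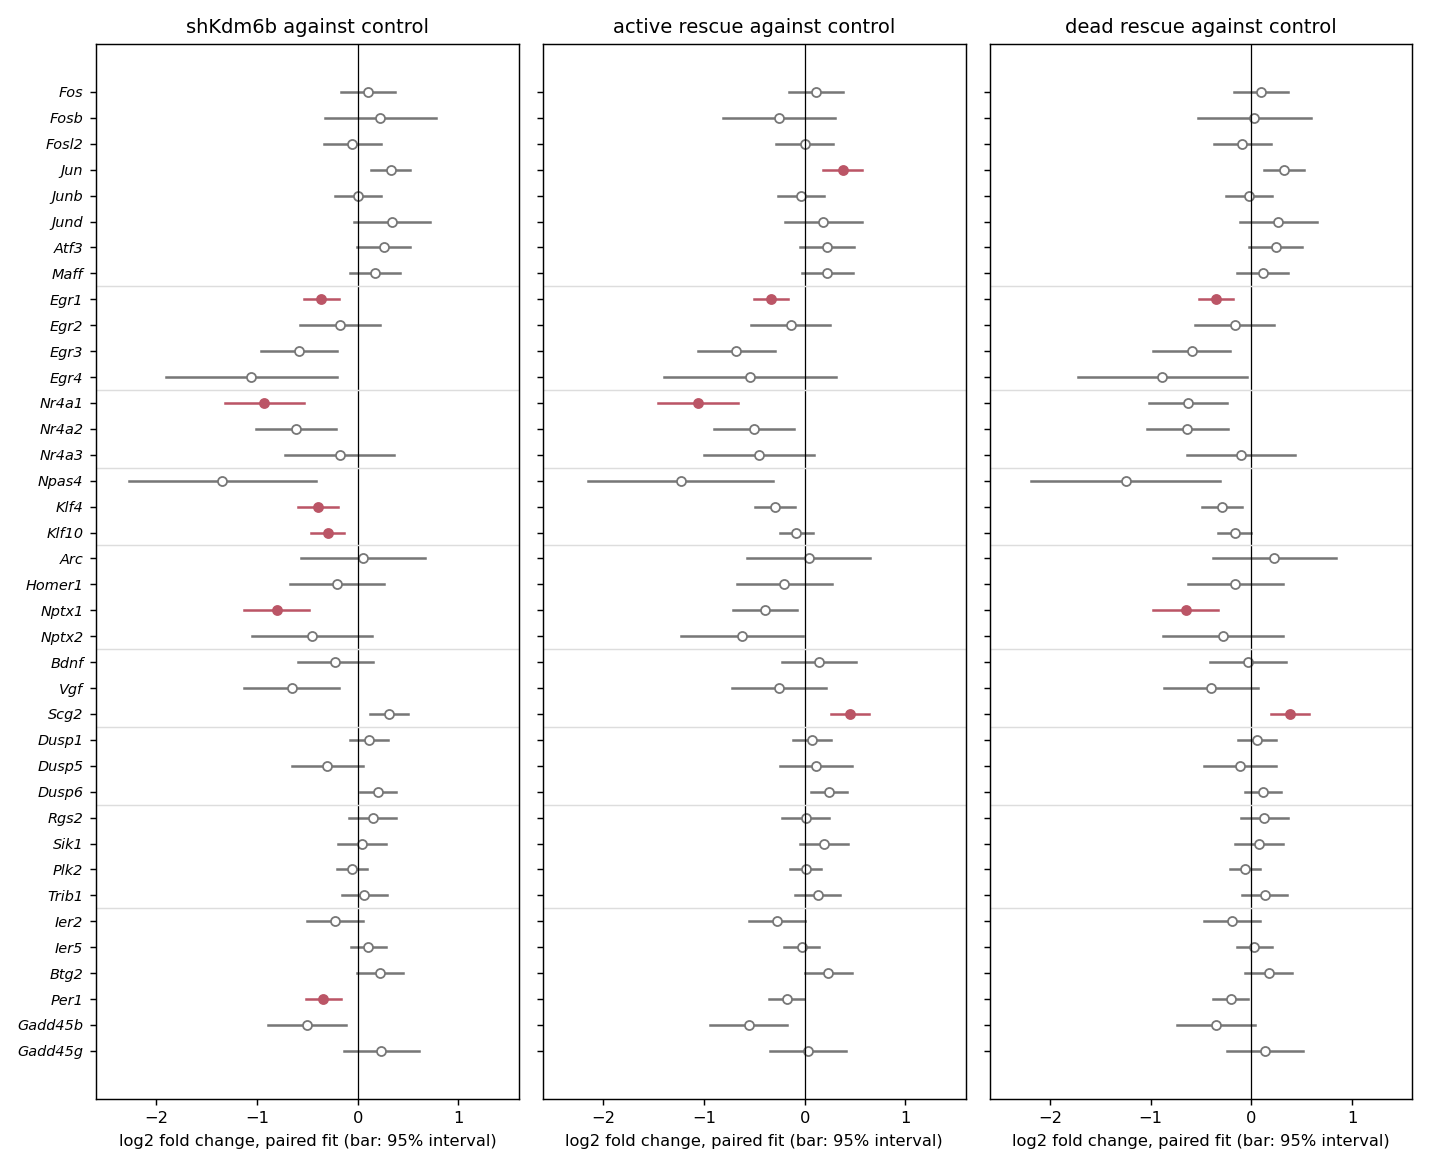
Log2 fold change (x axis) of shKdm6b, the active rescue and the dead rescue against control from the paired edgeR fit, with 95% confidence intervals, genes arranged by role; filled points passed an adjusted p of 0.05. Against control, shKdm6b has 6 filled points, all left of 0, the active rescue 4 and the dead rescue 3.

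**Figure D3:**
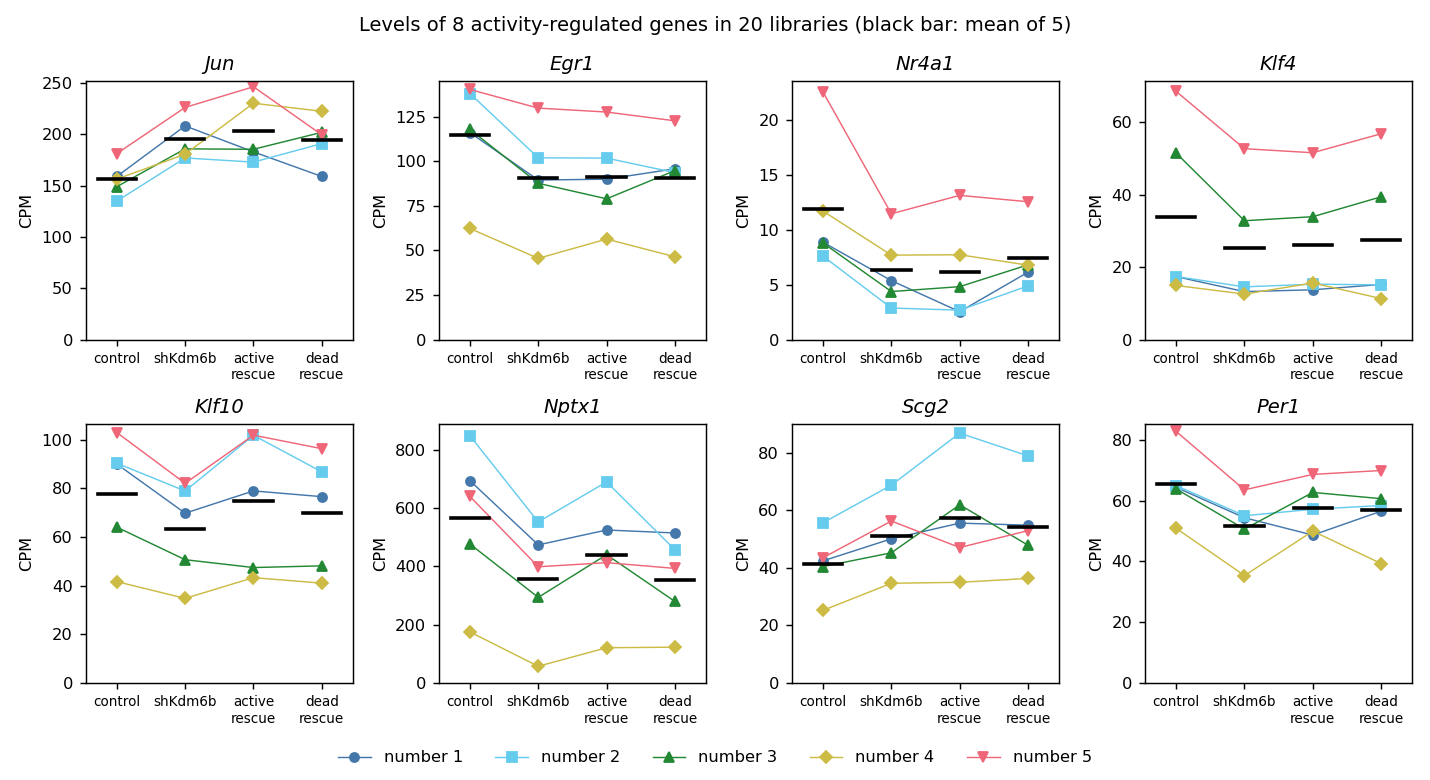
CPM (linear axis from 0) of the 8 genes called in any comparison with control, in all 20 libraries; symbols mark the library number, lines join libraries of the same number and black bars are means of 5. The lines of Egr1, Nr4a1, Klf4, Klf10, Nptx1 and Per1 go down from control to shKdm6b and those of Jun and Scg2 go up, while these groups overlap in every panel.

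Leaving out all libraries numbered 4 raised the count in this comparison to 10 (6.5% of all genes passed in that fit), and libraries 1 to 3 alone gave 4 (Egr1, Gadd45b, Nptx1 and Nr4a1; 2.91% of all genes). Libraries 4 and 5 alone gave 0 (0% of all genes), with Nptx1 at -1.11, Nr4a1 at -0.80 and Egr1 at -0.29, beside -0.62, -1.02 and -0.41 in libraries 1 to 3.

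The promoters of the called genes are shown with those of Fos and Jun, which did not pass in this comparison, so that the letters can be set beside the values; Scg2 is included because it passed in the rescue comparisons below. Each is the 250 bases before the RefSeq transcription start, in build GRCm38.p6, read 5′ to 3′ on the gene's strand. Capitals mark matches to the full CRE TGACGTCA or to its 5-letter core TGACG, called the short CRE here, which reads on the other strand as CGTCA; both are known from CREB binding sites.
Nr4a1 (chr15:101266596-101266845, + strand): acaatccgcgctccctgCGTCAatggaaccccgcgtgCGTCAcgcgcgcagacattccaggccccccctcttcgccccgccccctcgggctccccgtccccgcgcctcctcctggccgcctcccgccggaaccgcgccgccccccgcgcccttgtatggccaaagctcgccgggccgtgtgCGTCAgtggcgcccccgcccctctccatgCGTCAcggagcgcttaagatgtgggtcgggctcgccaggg
Klf4 (chr4:55532476-55532725, - strand): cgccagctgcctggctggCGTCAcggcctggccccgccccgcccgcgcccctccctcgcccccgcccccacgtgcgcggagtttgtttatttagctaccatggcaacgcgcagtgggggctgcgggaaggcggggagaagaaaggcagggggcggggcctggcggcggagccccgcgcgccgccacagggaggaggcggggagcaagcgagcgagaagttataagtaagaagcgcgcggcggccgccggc
Per1 (chr11:69099902-69100151, + strand): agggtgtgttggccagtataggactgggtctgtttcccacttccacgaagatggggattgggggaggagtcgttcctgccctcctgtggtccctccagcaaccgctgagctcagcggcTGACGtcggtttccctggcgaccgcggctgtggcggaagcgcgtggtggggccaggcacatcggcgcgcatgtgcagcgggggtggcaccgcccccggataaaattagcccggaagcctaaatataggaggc
Scg2 (chr1:79440027-79440276, - strand): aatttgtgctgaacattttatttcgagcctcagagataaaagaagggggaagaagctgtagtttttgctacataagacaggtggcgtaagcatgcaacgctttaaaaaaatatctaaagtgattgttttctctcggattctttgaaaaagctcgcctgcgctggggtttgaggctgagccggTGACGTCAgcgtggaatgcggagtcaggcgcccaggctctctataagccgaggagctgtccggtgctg
Fos (chr12:85473640-85473889, + strand): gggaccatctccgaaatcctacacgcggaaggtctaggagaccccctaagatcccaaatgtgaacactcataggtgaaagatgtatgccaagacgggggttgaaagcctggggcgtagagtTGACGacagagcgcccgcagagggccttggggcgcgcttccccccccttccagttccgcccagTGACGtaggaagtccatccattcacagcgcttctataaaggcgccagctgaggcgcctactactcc
Jun (chr4:95052223-95052472, - strand): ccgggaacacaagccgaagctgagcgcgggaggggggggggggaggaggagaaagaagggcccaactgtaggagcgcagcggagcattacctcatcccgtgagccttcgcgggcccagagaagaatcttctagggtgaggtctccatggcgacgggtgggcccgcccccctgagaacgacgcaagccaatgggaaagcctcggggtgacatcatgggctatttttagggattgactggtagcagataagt
The Nr4a1 window held 4 short CREs, the Fos window 2, the Klf4 window and the Per1 window shown 1 each, the Scg2 window a full CRE, and the Jun window none of the motifs searched. Of the 38 members, 28 had a promoter in the RefSeq table, with 42 start sites. A short CRE stood in 25 of these 42 windows (59.5%), against 17.8% of 32851 promoters of the same length. The full CRE, which also contains the short CRE on both strands, stood in 11.9% (Btg2, Dusp1, Maff, Plk2 and Scg2) against 1.55%. The AP-1 letters TGAGTCA and, on the other strand, TGACTCA stood in 0 of 42 (4.46% of all), the EGR letters GCGTGGGCG and, on the other strand, CGCCCACGC in 2.38% (Maff; 0.536% of all), and the SRF CArG box in 11.9% (Dusp5 and Egr2; 1.47% of all). Both strands were searched, windows of neighbouring starts of a gene overlap, and a match is a string of letters, not a measured site. By gene, the CArG box stood in 2 of 28 members, with Egr2 counted through several of its starts. Of the 6 genes that fell, Nr4a1, Klf4 and Per1 had a window with a short CRE, and Egr1, Klf10 and Nptx1 were not in the table. Counted by gene, 21 of all 28 members in the table had such a window. Whether the motif sets the genes that fell apart was not tested, since Egr1, Klf10 and Nptx1 had no window.

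Re-expression of the active domain was compared with shKdm6b alone. In the paired fit 0 of 38 members passed (edgeR; 0.00654% of all genes; 3 members had an unadjusted p under 0.05), and without the block 0 passed, with 0 at an unadjusted p under 0.05. DESeq2 called 0 in both forms. The median was 0.03 for the members and 0.01 for all genes. Nptx1 was at 525, 691, 441, 120.5 and 413 CPM in the active rescue, above shKdm6b in 5 of 5 pairs by 0.41 ± 0.15 (95% interval 0.09 to 0.73, adjusted p = 1). Klf10 was at 79.0, 102, 47.4, 43.3 and 102 CPM, higher in 4 of 5 pairs by 0.22 ± 0.08, and Dusp5 was higher in 4 of 5 by 0.41 ± 0.17. These 3 were the members with an unadjusted p under 0.05, and none passed over all genes. The share of all genes at an unadjusted p under 0.05 is not given here, so no result is drawn from such counts. Shares of all genes for pair counts are given only for comparisons with control. Nr4a1 was at 2.54, 2.67, 4.81, 7.72 and 13.1 CPM, and its difference from shKdm6b was -0.13 (95% interval -0.53 to 0.27). For Egr1, at 89.9, 102, 78.9, 56.3 and 128 CPM, it was 0.03 (-0.14 to 0.20).

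With the dead domain against shKdm6b, 0 of 38 passed in either fit (background 0%; 0 members at an unadjusted p under 0.05 in either; DESeq2 0), with a median of 0.02. Nptx1 was at 515, 457, 279.5, 122 and 393 CPM in the dead rescue, above shKdm6b in 2 of 5 pairs (0.15, 95% interval -0.17 to 0.47). Nr4a1 was at 6.13, 4.88, 6.80, 6.77 and 12.5 CPM, above shKdm6b in 4 of 5 pairs (0.30, -0.09 to 0.70), and Egr1 at 95.7, 93.6, 94.7, 46.4 and 123 CPM (0.01, -0.16 to 0.18). Per1 was higher in 5 of 5 pairs by 0.14 (-0.04 to 0.31). The intervals leave room for differences of these sizes, so equal levels are not shown.

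By design, the active and the dead rescue differ in the activity of the domain. Between them 0 of 38 members passed (paired fit, 0.00654% of all genes; 1 member at an unadjusted p under 0.05; 0 and 0 without the block; DESeq2 0 in both), with a median of 0.02. That member was Nr4a1, lower in the active than in the dead rescue in 3 of 5 pairs by -0.43 ± 0.19 (95% interval -0.83 to -0.03, adjusted p = 1). Nptx1 was higher in the active rescue in 4 of 5 pairs by 0.26 ± 0.15 (-0.06 to 0.58). Over the 38 genes the values ran from -0.43 to 0.34. Kdm6b itself was higher in the active than in the dead rescue in 5 of 5 pairs (0.29 ± 0.21, paired fit) and did not pass. The part of this difference in the members' values was not tested.

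**Figure D4:**
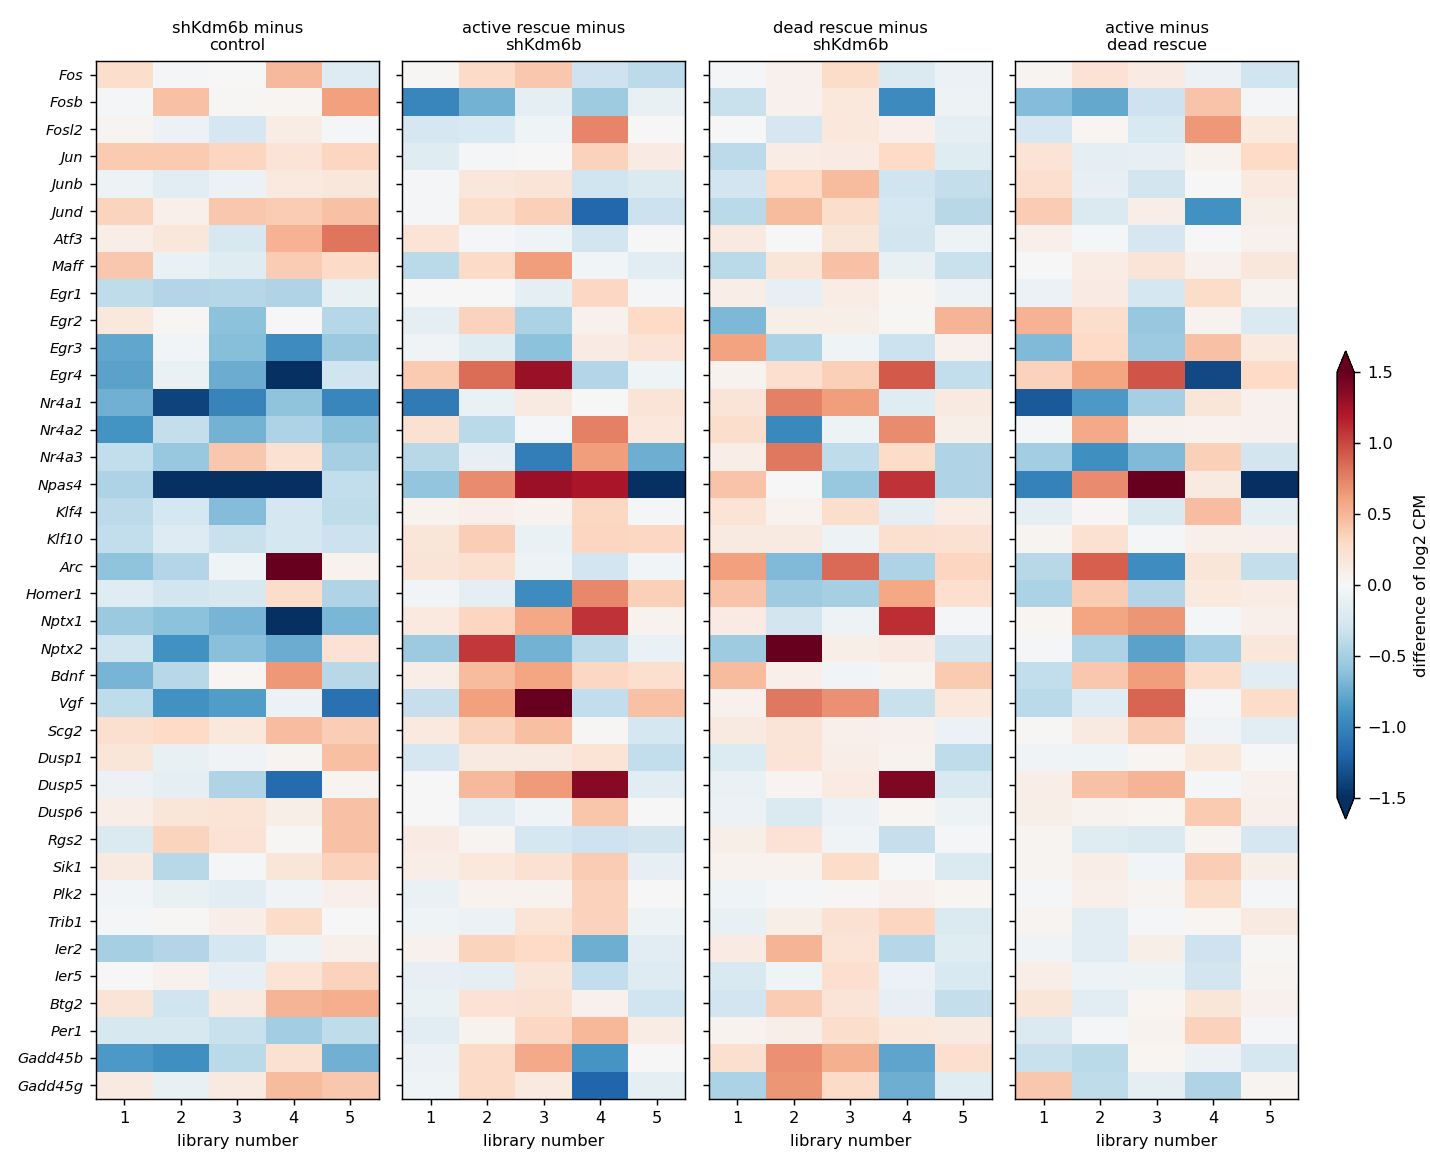
Log2 difference between same-numbered libraries for each of the 38 genes, for shKdm6b minus control, each rescue minus shKdm6b and the active minus the dead rescue, with 1 column per number; colours saturate at 1.5 log2 units in either direction. Nptx1, Nr4a1, Egr1, Klf4, Per1 and Klf10 are below 0 in all 5 columns of the first panel, and Jun and Scg2 above 0.

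Each rescue was also set against control; these comparisons share the 5 control libraries with each other and with the knockdown comparison, so their values are given side by side and not as repeats. Against control, 4 members passed in the active rescue (paired fit; 1.96% of all genes, 1.09% higher and 0.87% lower) and 0 without the block (0% of all genes; 2 members at an unadjusted p under 0.05; DESeq2 0). Lower values in 5 of 5 same-numbered pairs were found for 6 members (15.8%, against 4.51% of all genes) and higher values for 4 (10.5%, against 6.83%). Nr4a1 fell (-1.06 ± 0.19, adjusted p = 0.00716, lower in 5 of 5 pairs), as did Egr1 (-0.33 ± 0.08, adjusted p = 0.0455). Scg2 rose: its active rescue libraries were at 55.6, 86.9, 62.0, 35.0 and 47.1 CPM, all above their same-numbered controls (0.45 ± 0.09, adjusted p = 0.0125). Jun, at 183, 173, 185, 230.3 and 246 CPM, also rose (0.38 ± 0.09, adjusted p = 0.0458, 5 of 5 pairs). The Nr4a1 call held in all 10 fits without 1 library. The Scg2 call was lost without active rescue 2 (adjusted p = 0.0501), the Egr1 call in 8 of 10 and the Jun call in 10 of 10 such fits. Without the libraries numbered 4 the count was 9 (4.6% of all genes), with libraries 1 to 3 alone 3 (2.97%), and with libraries 4 and 5 alone 0 (0%).

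Against control, 3 members passed in the dead rescue (paired fit; 1.18% of all genes, 0.576% higher and 0.608% lower) and 0 without the block (0% of all genes; 2 members at an unadjusted p under 0.05; DESeq2 0). Of the members, 9 were lower in 5 of 5 pairs (23.7%, against 5.65% of all genes) and 1 was higher (2.63%, against 6.48%). Egr1 fell (-0.35 ± 0.08, adjusted p = 0.0422), Nptx1 fell (-0.65 ± 0.15, adjusted p = 0.0455) and Scg2 rose (0.38 ± 0.09, adjusted p = 0.0451), each in 5 of 5 pairs. Scg2 was at 54.9, 79.0, 47.9, 36.3 and 53.0 CPM there, and Jun at 159, 191, 202, 222 and 199.5 CPM (0.32 ± 0.09, adjusted p = 0.115). Nr4a1 had -0.63 ± 0.18 (adjusted p = 0.130). The Egr1 and Nptx1 calls were each lost in 9 of 10 fits without 1 library and the Scg2 call in 10 of 10. Without the libraries numbered 4 the count was 3 (Egr1, Nptx1 and Nr4a2; 2.48% of all genes), with libraries 1 to 3 alone 1 (0.936%), and with libraries 4 and 5 alone 0 (0%).

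For the other members called against control with shKdm6b, the rescue levels were as follows. Klf4 was at 13.8, 15.3, 34.0, 15.6 and 51.6 CPM in the active rescue and at 15.2, 15.1, 39.5, 11.3 and 56.9 CPM in the dead rescue (-0.30 and -0.29 against control, adjusted p = 0.130 and 0.181). Klf10 in the dead rescue was at 76.6, 86.8, 48.1, 41.0 and 96.4 CPM, and its values against control were -0.08 in the active and -0.17 in the dead rescue. Per1 was at 48.7, 57.2, 62.7, 49.97 and 68.7 CPM and at 56.6, 58.4, 60.7, 39.3 and 70.0 CPM in the active and dead rescue (-0.18 and -0.21 against control). None of these 3 genes passed in a rescue against control, and none passed in a rescue against shKdm6b. Dusp5 and Plk2 passed in no comparison; they were at 64.4, 97.3, 73.1, 21.1 and 75.3 CPM and at 78.0, 79.5, 88.0, 67.3 and 79.2 CPM in the active rescue, and at 60.0, 71.5, 51.4, 21.5 and 72.0 CPM and at 79.8, 75.1, 85.8, 55.4 and 80.7 CPM in the dead rescue.

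Beyond the 38 genes, a pair of lists described the surrounding pathway. Of 54 genes that carry the signal (calcium channels and kinases, CREB, MEF2 and SRF with their partners, and MAP kinases), 5 fell (9.26%, against 2.41% of all genes) and 0 rose (1.72% of all genes) with shKdm6b in the paired fit, with 0 called without the block (3 at an unadjusted p under 0.05; medians -0.09 for the list and 0.01 for all genes in the paired fit). They were the calcium/calmodulin kinase genes Camkk1 (-0.70 ± 0.13) and Camk4 (-0.67 ± 0.15), the calcium-dependent factor gene Nfatc2 (-0.92 ± 0.20), and Hdac5 (-0.28 ± 0.07) and Hdac9 (-0.75 ± 0.19), whose products repress MEF2 targets. Camk4 was at 759 ± 366 CPM in control and 543 ± 324 CPM with shKdm6b, lower in 5 of 5 pairs. Of 57 further activity-regulated genes tested out of 59, 3 fell (5.26%, against 2.41% of all genes) and 2 rose (3.51%, against 1.72%) in the paired fit and 0 were called without the block (4 at an unadjusted p under 0.05; paired median -0.01). Nab2, an EGR co-repressor induced by EGR factors, had the smallest adjusted p (159 ± 54.3 CPM in control, 80.8 ± 33.2 CPM with shKdm6b, -1.04 ± 0.15, adjusted p = 0.000670). The growth factor gene Hbegf (-0.63 ± 0.12) and the sorting receptor gene Sorcs3 (-0.64 ± 0.15) also fell, while Stmn4 (0.91 ± 0.19), a regulator of microtubules, and Id2 (0.34 ± 0.08), an inhibitor of helix-loop-helix factors, rose. Against control, Nab2 fell in the active rescue (-0.79 ± 0.15) and in the dead rescue (-0.85 ± 0.15), Hbegf fell in the active rescue (-0.51 ± 0.12) and Id2 rose in the dead rescue (0.35 ± 0.08). Between a rescue and shKdm6b, or between the rescues, 0 genes of either list passed in edgeR (paired fit; at an unadjusted p under 0.05, 3, 0 and 1 of the signal list and 4, 1 and 3 of the further genes for active rescue against shKdm6b, dead rescue against shKdm6b and active against dead rescue).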

How the data were processed

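RNA-seq was made from 20 libraries of mouse cerebellar granule neuron cultures, 5 in each of 4 groups taken from the labels, and the authors deposited 1 table of estimated counts per gene symbol. The name of that deposited table gives salmon and the submitters' processing notes give the genome build mm10. The sources used here give no salmon version, annotation, filter or strand setting. Per library, 7.03 to 11.2% of values were fractional, and totals ran from 14200745 to 21179300, so that a member at 1 CPM rests on few reads.

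Counts were rounded, filtered with filterByExpr of edgeR 4.0.16 in R 4.3.3 (15284 genes left, 9127 removed), scaled by TMM and tested with edgeR's robust quasi-likelihood test in 1 fit of all 20 libraries, two-sided, with Benjamini-Hochberg adjustment over all genes and a threshold of 0.05. CPM use TMM-scaled totals, and log2 CPM a prior count of 1. Levels per length divide CPM by the union of exons in GENCODE vM21. The planned fit had no replicate block. Whether the library numbers pair the samples was then checked with each library's deviations from its group mean. These correlated across genes in all 30 pairs with the same number (Pearson r 0.361 to 0.881, limit 0.1), had a median r of -0.205 in the 120 pairs with different numbers, and matched the own number best in 20 of 20 libraries. When same-numbered libraries correlate, centring on the group means pushes the other pairs below 0. The negative median therefore adds no separate support. The pairing comes from this check, since no label explains the numbers. The paired fit, with the number as a replicate block, is therefore given beside the planned one, and lowered the biological coefficient of variation from 0.392 to 0.179.

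The members, their role groups, the pathway lists and the marker lists were chosen with earlier results of these data known. Full values are given for every member called in any of the 6 comparisons and, in role groups without one, for the member with the highest mean CPM, and pathway genes for up to 5 called per list and comparison; Npas4 and Gadd45b were added after their values were seen. Single genes were compared with exact permutation tests, whose smallest p at 5 against 5 is 0.00794. Both fits were also run on counts simulated from the paired fit's own means and spread. Such counts cannot show whether the block is right, and no result is drawn from them here. Alternatives were DESeq2 1.42.0, its size factors, no filter, only the 2 groups compared, and leaving out libraries. Promoters are RefSeq windows in GRCm38.p6.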

Additional observations from a re-analysis of the deposited data

Results flagged for a closer look

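Nr4a1 stood apart in 2 libraries, both numbered 5. Control 5 was at 22.5 CPM while the other 4 control libraries were at 7.59 to 11.7 CPM, and dead rescue 5 was at 12.5 CPM while the other 4 were at 4.88 to 6.80 CPM. In both, the gap to the nearest library took up more of the group's range than Dixon's 95% limit for 5 samples allows. Of 36 gene and group combinations checked (8 named members and Kdm6b in 4 groups), 2 met this rule, near the rate of about 1 in 20 that chance picks. Number 5 was also the highest for Nr4a1 in shKdm6b (11.4 CPM, the others up to 7.68 CPM). The same held in the active rescue (13.1 CPM, the others up to 7.72 CPM), so a high number 5 was shared by all 4 groups. The paired fall of Nr4a1 with shKdm6b was called in all 10 fits without 1 library, those without a library numbered 5 included.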

How the results depend on the processing

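Without the replicate block, 0 members were called in any of the 6 comparisons under any alternative, leaving out each replicate included. With the replicate block, against control, shKdm6b had 6, the active rescue 4 and the dead rescue 3 members called. The share of all genes called in the same fit stands in brackets. With DESeq2 size factors and the block the counts were 6 (4.1%), 3 (1.9%) and 3 (1.17%), with no low-count filter 5 (2.84%), 2 (1.21%) and 1 (0.793%), and with DESeq2 11 (6.3%), 6 (4.08%) and 6 (2.98%). With only the compared groups in the fit they were 13 (12.1%), 0 (0.0136%) and 1 (0.307%). Without the libraries numbered 4 they were 10 (6.5%), 9 (4.6%) and 3 (2.48%), and with libraries 1 to 3 alone 4 (2.91%), 3 (2.97%) and 1 (0.936%). Leaving out 1 library at a time with the replicate block gave 3 to 8, 1 to 4 and 0 to 1, and without it 0 throughout. The other 3 comparisons had 0 under every setting run. The 13 pairs of a called gene and a comparison changed sign in 0 alternatives. With the block 136 of 234 values were called, and without it 0 of 182. The 234 include the paired fit that selected the 13 pairs, so 13 of the 136 calls were fixed in advance. The cause of these differences was not tested.

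The exact permutation p of Jun between shKdm6b and control ran from 0.00794 to 0.0397 without 1 library, and that of Kdm6b from 0.0159 to 0.0794. Fosb, Nptx2, Npas4 and Arc had the lowest mean levels (1.06 to 3.02 CPM), and their standard errors in the paired comparison of shKdm6b with control were 0.26 to 0.44 log2 units, beside 0.07 for Plk2, so changes of moderate size were not detectable for them.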
